A study of Homo sapiens with 6 samples.

Results

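The mammalian L1 families, written L1M, are old subfamilies of the L1 long interspersed element. They were taken as all entries of a repeat count table whose name starts with L1M, which gave 88 of 15641 entries. The table comes from chromatin-fraction RNA of H9, a widely used and established line of human embryonic stem cells, with 3 libraries labelled naive and 3 labelled primed. The naive state refers to RSeT, a commercial medium for naive-like culture, and primed is the state of conventional human embryonic stem cells. The growth protocol in the labels names RSeT for all 6 libraries, so the primed state rests on the treatment label alone. No genetic change or further agent is listed, and all cells are of 1 line. The labels do not state whether each library had its own culture, and p-values here reflect no more than the spread among 3 libraries a group, which can be technical.

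L1 elements are retrotransposons that copy themselves through an RNA made from an internal promoter at the 5′ end, which encodes an RNA-binding protein and a reverse transcriptase. L1M copies were inserted early in mammalian evolution, are mutated and mostly cut short at the 5′ end, and no longer move. Many lie inside introns, and chromatin-bound RNA holds much unspliced nascent transcript, so their sequence can be read as part of other transcripts as well as from the element itself. In repeat annotation the letters A to E run roughly from younger to older, and the numbers within a letter run the same way. Those lettered names rest largely on the 3′ end of the element, while many names with a digit or a lower-case letter after L1M or the group letter stand for 5′ or inner parts. The part of the element counted under each name is not known here.

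Library totals were 9748202, 17791046 and 16700953 for the naive state (libraries 1 to 3) and 7192242, 118793 and 8106871 for the primed state. The second primed library was much the shallowest, with a median of 164.5 counts per L1M entry against 7491.5 to 14910.5 in the other 5 libraries, and its lowest L1M entry had 4 counts. Each value sums all genomic copies of a repeat, so no entry has a single coordinate. The table holds repeat names and no genes. The markers of cell type read here were HERVH-int and LTR7, a retrovirus and its terminal repeat known to be transcribed in human pluripotent cells. These took 2.56%, 2.76% and 2.15% of counts in the naive libraries and 1.87%, 1.88% and 1.88% in the primed libraries. No other cell type was at hand for comparison, so these shares test neither the cell type nor the naive and primed labels. Alpha satellite, the repeat of centromeres, took 25.3%, 42.9% and 34.5% of counts in the naive libraries, against 0.221%, 0.625% and 0.305% in the primed libraries. Ribosomal RNA varied widely within groups and overlapped. It took 6.08%, 5.58% and 0.169% in the naive libraries, and 17.7%, 4.04% and 8.01% in the primed libraries.

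L1M entries made up a smaller share of all counts in the naive libraries, and overlapping shares once alpha satellite and ribosomal RNA were set aside. They took 11.95%, 8.42% and 10.5% of all counts in the naive libraries 1 to 3, and 12.7%, 16.5% and 14.9% in the primed libraries 1 to 3. The groups did not overlap, and the means were 10.3% ± 1.78 in the naive and 14.7% ± 1.95 in the primed libraries (SD, n = 3). The widest 95% Wilson interval, that of primed library 2, ran from 16.3% to 16.8% and covers counting error only. Outside alpha satellite and ribosomal RNA the shares were 17.4%, 16.3% and 16.04% in the naive libraries, against 15.4%, 17.4% and 16.2% in the primed libraries. These groups overlapped, with means of 16.6% ± 0.722 and 16.3% ± 0.965 (SD, n = 3), so the sign of the difference turned from -4.40 to 0.268 percentage points. Among all L1 counts, L1M held 61.6% ± 2.81 in the naive and 64.7% ± 3.56 in the primed libraries (SD, n = 3), again with overlap. In such bulk libraries fewer cells carrying an RNA and less of it per cell cannot be told apart.

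**Figure D1:**
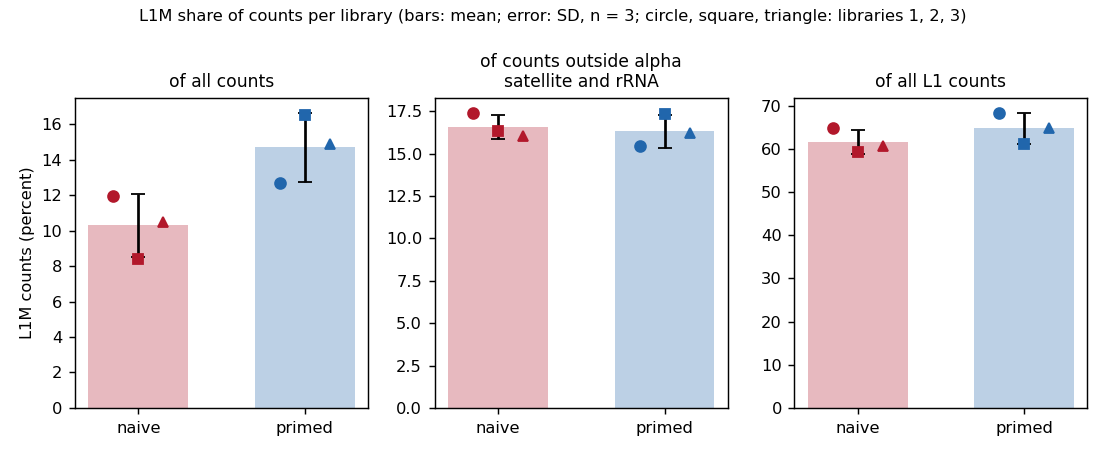
L1M counts in each library as a percent of 3 totals, with bars for the mean and error bars for the SD of 3 libraries. The naive libraries sit below the primed ones as a share of all counts (10.3% and 14.7% on average), and the groups overlap for the other denominators.

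With libraries scaled by TMM, a method that sets most entries to no change, L1M entries had slightly higher scaled values in the naive libraries. All 88 passed the filter on low counts, and 86 had a log2 change above 0 (86 below 0 with library size as the only scaling), with a median of 0.23 and a range of -0.67 to 0.65. Of the 88 entries, 10 rose and 0 fell, while 78 missed the threshold (edgeR quasi-likelihood test, Benjamini-Hochberg adjustment over the 3219 entries tested, threshold 0.05). Without adjustment 32 were higher and 0 lower at p under 0.05, and DESeq2 called 6 higher and 0 lower. Of those 6, 5 are among the 10 and the sixth is L1M1 (DESeq2 adjusted p = 0.0468), while L1M3de, L1M2a, L1M2c, L1M4a2 and L1M6 did not pass there. DESeq2 was given all 10175 entries with a count, without the edgeR filter, of which 0.924% were higher and 1.12% lower. Any entries that DESeq2 left without an adjusted p count as not called in these shares. No share of named repeats was taken for that fit. The 10 are 11.4% of L1M entries. Over all entries tested 4.94% were called higher and 7.77% lower, and over the 1265 named repeats, which exclude simple repeats, 10.4% were higher and 1.19% lower. The L1M share of calls is thus near that of named repeats. The median of 0.23 is likewise near the 0.21 of all named repeats tested, while the median over all entries was -0.0046. The 1954 simple repeats tested had a median of -0.34, with 1.43% called higher and 12% lower. With simple repeats left out of the table the L1M median was 0.0026, and 0 L1M entries were called.

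The L1M values did not overlap between groups in 57 of 88 entries, all with naive above primed under TMM scaling. Over all entries tested the share with naive above primed and no overlap was 19.4%, with 11.0% the other way, and among named repeats it was 36.0%, with 3.24% the other way. The median SE of a log2 change was 0.13 over L1M entries, against 0.17 over named repeats and 0.34 over all entries tested. This SE comes from the fitted model and depends on the reads of an entry as well as on the spread between libraries. The changes were small, none reaching a doubling.

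**Figure D2:**
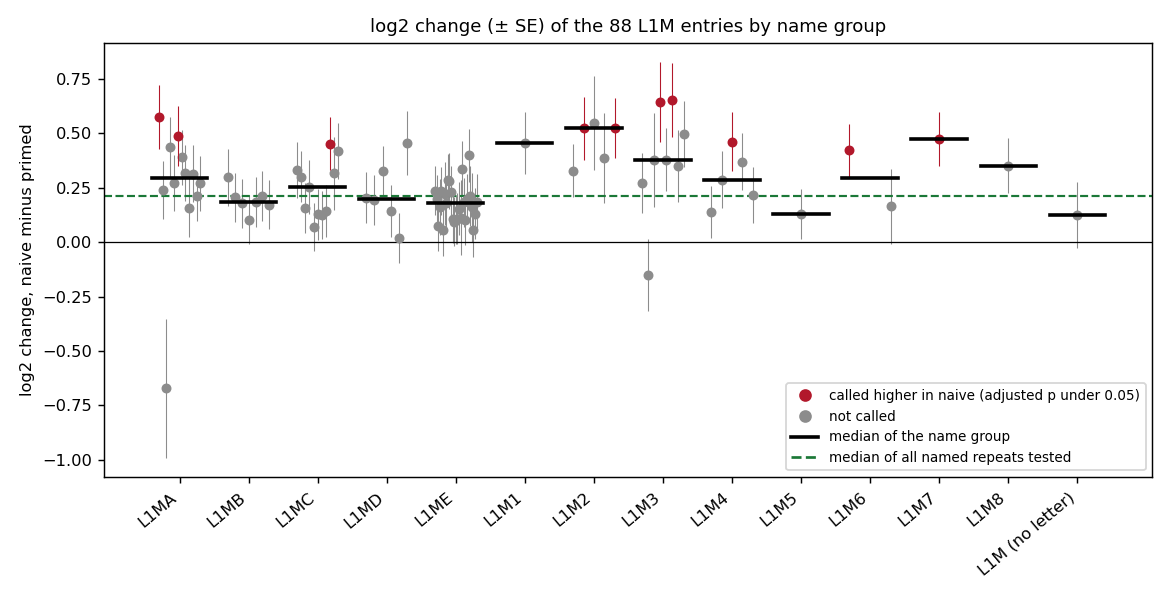
Log2 change, naive minus primed, with its SE for each of the 88 L1M entries, arranged by name group, with a black bar for the group median. The 10 entries called higher are red and lie mostly in the groups with a digit after L1M, with library size alone 86 of the 88 would lie below 0, and the dashed line at 0.21 marks the median of all named repeats tested.

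All 14 name groups had a median above 0 with TMM scaling, and 0 of them with library size alone. Among the lettered groups the median was 0.29 for the 12 L1MA entries, 0.18 for the 7 of L1MB, 0.25 for the 11 of L1MC, 0.20 for the 6 of L1MD and 0.18 for the 27 of L1ME. Calls in these groups came to 2 in L1MA, 1 in L1MC and 0 in L1MB, L1MD and L1ME. Among the groups with a digit, the median was 0.52 for the 5 L1M2 entries, 0.38 for the 8 of L1M3, 0.29 for the 5 of L1M4 and 0.29 for the 2 of L1M6. Calls there came to 2 in L1M2, 2 in L1M3, 1 in L1M4 and 1 in L1M6. L1M1, L1M5, L1M7 and L1M8 have 1 entry each, of which L1M7 was called. For scale, 4.94% of all entries tested and 10.4% of named repeats were called higher. The shares were 16.7% in L1MA, 9.09% in L1MC, 40% in L1M2, 25% in L1M3, 20% in L1M4 and 50% in L1M6. With so few entries a group, 1 call moves such a share widely. No test was run between name groups.

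The entries were also sorted by the form of the name, a grouping chosen after the values were seen. Of the 24 entries with a digit after L1M, 7 rose (29.2%), and the other 17 did not pass. In the 47 entries with a group letter and then a number or nothing, 2 rose (4.26%). In the 16 with a group letter and a lower-case letter, 1 rose (6.25%). The share called higher was 4.94% over all entries tested and 10.4% over named repeats. DESeq2 called 3 entries with a digit and 3 others. With simple repeats removed, or with the L1M sum as library size, edgeR called 0 L1M entries. The median log2 changes of these forms of name were 0.38, 0.20 and 0.19, in the order given. The gap between the first and the second of these medians was 0.17, and 0.15 to 0.22 when 1 library was left out. It is a description with no test. Over the 88 entries the Spearman correlation of mean CPM with log2 change was -0.41. The 88 points come from the same 6 libraries.

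L1M3 held the 2 largest increases. All single values that follow, and what is said of their overlap, use TMM scaling over the whole table. Scaled by library size alone, the groups overlapped in every called entry. L1M3de then had 74.27, 57.28 and 74.25 CPM in naive libraries 1 to 3, and 52.83, 58.93 and 82.03 CPM in primed libraries 1 to 3. With library size alone the log2 changes of L1M3de and L1M3c were 0.047 and 0.0013, and those of the other 8 called entries were between -0.25 and -0.10. With simple repeats removed the changes of the called entries lay between 0.19 (L1M6) and 0.43 (L1M3de), and 0 of them passed. L1M3de had 82.2, 91.1 and 86.9 CPM (counts scaled by library size and TMM factor) in the naive libraries 1 to 3, against 47.98, 39.1 and 66.1 CPM in the primed libraries 1 to 3. Every naive library was above every primed one, though the value of primed library 2 rests on 7 counts. It rose by 0.65 ± 0.17 (log2, SE; edgeR adjusted p = 0.0317), a 1.57-fold difference. L1M3c had 179, 237 and 181 CPM in the naive libraries, against 118, 89.3 and 153 CPM in the primed libraries. It rose by 0.64 ± 0.18 (edgeR adjusted p = 0.0426), with no overlap and with 16 counts behind primed library 2. L1M3, the most abundant entry of its group, overlapped between groups, at 1077 ± 133 CPM in the naive and 897 ± 95.4 CPM in the primed libraries (SD, n = 3; log2 0.27, edgeR adjusted p = 0.201).

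In L1M2 the entries L1M2a and L1M2c rose, with only 25 and 13 counts behind their values in primed library 2. L1M2a had 265, 282 and 251 CPM in the naive libraries, against 198, 140 and 196 CPM in the primed libraries, and L1M2c had 96.5, 95.9 and 100.8 CPM in the naive libraries, against 61.2, 72.6 and 73.5 CPM in the primed libraries. Both were without overlap, and their log2 changes were equal to 2 decimals, 0.52 ± 0.15 for L1M2a and 0.52 ± 0.14 for L1M2c (SE; edgeR adjusted p = 0.0391 and 0.0329). L1M2, with the most reads of its group, was at 2068 ± 155 CPM in the naive and 1644 ± 137 CPM in the primed libraries (SD, n = 3), also without overlap. Its log2 change of 0.33 did not pass (edgeR adjusted p = 0.0950).

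The remaining called entries with a digit were L1M4a2, L1M6 and L1M7. L1M4a2 had 426, 386 and 374 CPM in the naive libraries, against 261, 274 and 322 CPM in the primed libraries (log2 0.46 ± 0.13, edgeR adjusted p = 0.0454). L1M6 had 593, 624 and 580 CPM in the naive libraries, against 429, 424 and 482 CPM in the primed libraries (log2 0.42 ± 0.12, edgeR adjusted p = 0.0442). L1M7 had 420, 458 and 419 CPM in the naive libraries, against 321, 285 and 320 CPM in the primed libraries (log2 0.47 ± 0.12, edgeR adjusted p = 0.0317). In all 3 entries the naive libraries were above the primed ones without overlap. L1M1 was at 2634 ± 256 CPM in the naive and 1925 ± 309 CPM in the primed libraries (SD, n = 3; log2 0.46, edgeR adjusted p = 0.0577), and L1M8 at 269 ± 1.79 and 211 ± 15.9 CPM (log2 0.35, edgeR adjusted p = 0.0844). Neither passed, though neither overlapped. L1M5, the second most read L1M entry, was at 5629 ± 276 CPM in the naive and 5145 ± 332 CPM in the primed libraries (log2 0.13, edgeR adjusted p = 0.476), L1M4 at 3693 ± 267 and 3350 ± 266 CPM (log2 0.14, edgeR adjusted p = 0.465), and the entry named L1M alone at 46.03 ± 2.09 and 42.8 ± 1.88 CPM (log2 0.13, edgeR adjusted p = 0.600). These 3 overlapped between groups.

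**Figure D3:**
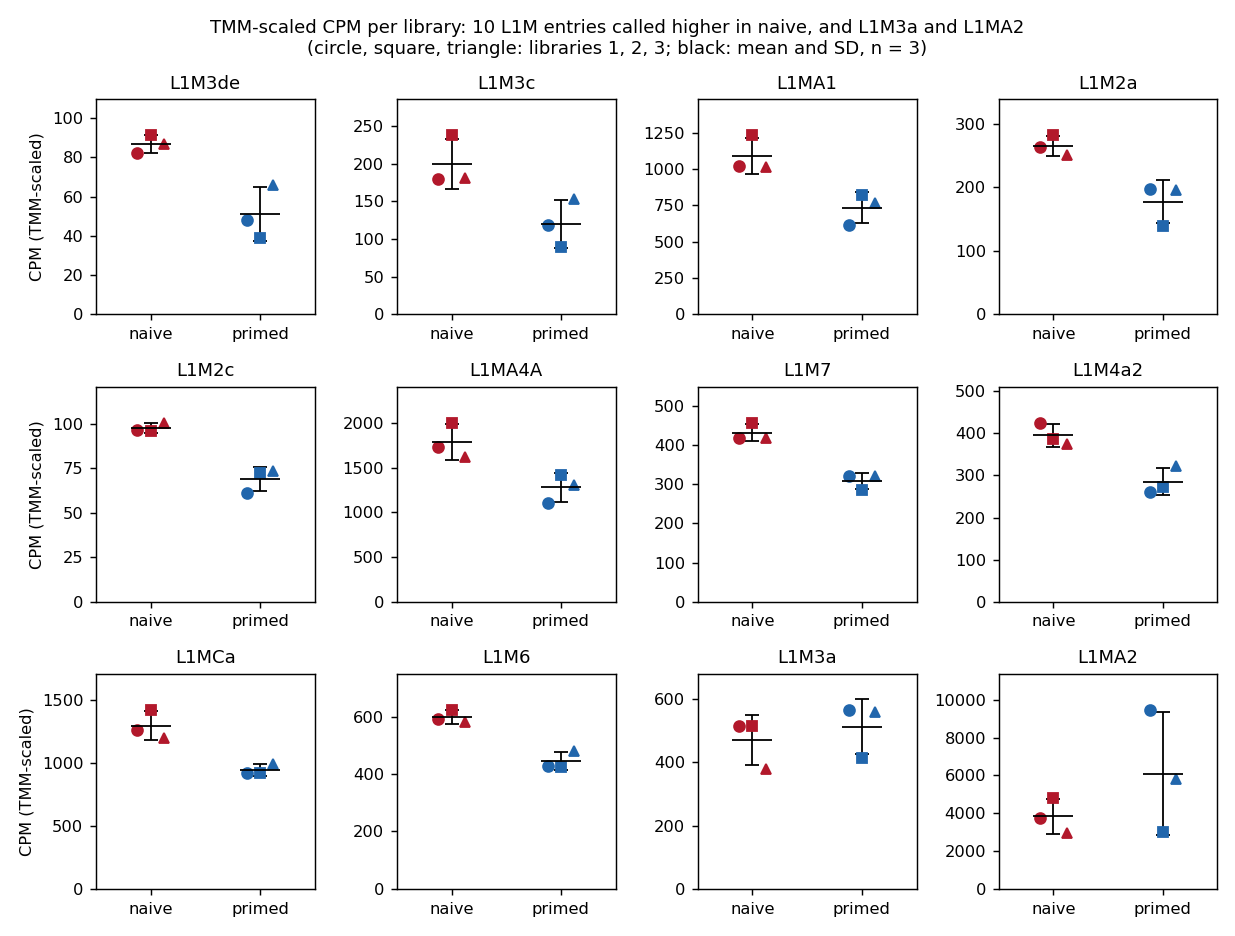
TMM-scaled CPM in each library for the 10 L1M entries called higher in the naive libraries and for L1M3a and L1MA2, with the mean and SD of 3 libraries in black. Under TMM scaling the groups are apart in the 10 called entries and overlap in L1M3a and L1MA2. L1M3de, for one, has 82.2 to 91.1 CPM in the naive against 39.1 to 66.1 CPM in the primed libraries. With library size alone all 10 overlap between groups, and 8 of the 10 have a log2 change below 0.

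Among the lettered groups, L1MA held 2 of the 3 calls. That is 16.7% of its 12 entries, against 4.94% called higher over all entries tested and 10.4% over named repeats. All 3 calls were lost with upper-quartile factors, with the L1M sum as library size and with simple repeats removed. L1MA1 had 1018, 1231 and 1012 CPM in the naive libraries, against 612, 821 and 769 CPM in the primed libraries. All naive values were above all primed ones, and it rose by 0.58 ± 0.15 (log2, SE; edgeR adjusted p = 0.0302). L1MA4A had 1733, 2007 and 1625 CPM in the naive libraries, against 1105, 1424 and 1310 CPM in the primed libraries, and rose by 0.49 ± 0.14 (edgeR adjusted p = 0.0415). The third call was L1MCa, with 1263, 1424 and 1200 CPM in the naive libraries, against 918, 921 and 996 CPM in the primed libraries, which rose by 0.45 ± 0.12 (edgeR adjusted p = 0.0350). Both of these were likewise without overlap.

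The numbered L1MA names showed a loose order, with smaller changes at higher numbers and several exceptions. In order of number the log2 changes were 0.58 for L1MA1, -0.67 for L1MA2, 0.44 for L1MA3, 0.27 for L1MA4, 0.49 for L1MA4A, 0.39 for L1MA5, 0.32 for L1MA5A, 0.16 for L1MA6, 0.32 for L1MA7, 0.21 for L1MA8, 0.27 for L1MA9 and 0.24 for L1MA10. L1MA2 and L1MA6 lay below all the later numbers, and L1MA4 below L1MA5 and L1MA7. The Spearman correlation of number and log2 change was -0.449 over all 12 entries (-0.502 to -0.354 when 1 library was left out). It was -0.785 over the 11 that remain without L1MA2, an omission made after its value was seen. For L1MB and L1MC, with 7 numbered entries each, it was -0.429 and -0.727, and without 1 library -0.464 to -0.107 and -0.727 to -0.418. Ranks hardly depend on the scaling of libraries, so other scalings are no check of this order. These are descriptions: the entries share the same 6 libraries, neighbours by name are similar in sequence and can share reads, and most of their SEs overlap.

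**Figure D4:**
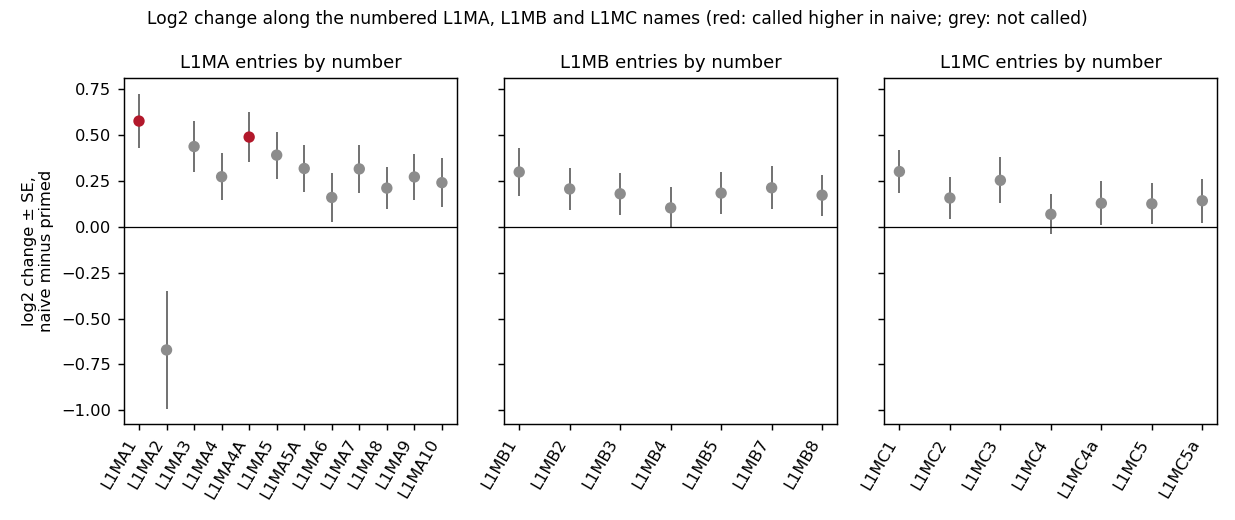
Log2 change, naive minus primed, with its SE for the numbered L1MA, L1MB and L1MC entries in order of number, red where called higher. L1MA1 stands at 0.58 and L1MA10 at 0.24, with L1MA2 apart at -0.67 and L1MA6, at 0.16, below the numbers after it.

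L1MA2 stood apart from its neighbours. It had 3728, 4818 and 2979 CPM in the naive libraries 1 to 3, against 9475, 3026 and 5787 CPM in the primed libraries 1 to 3. The groups overlapped, since primed library 2 lay within the naive range while primed library 1 was far above every other library. The log2 change of -0.67 ± 0.32 did not pass (edgeR adjusted p = 0.175), and it was -0.23 without primed library 1 (edgeR adjusted p = 0.726) and -0.98 without primed library 2 (edgeR adjusted p = 0.0276). It also passed with library size alone (log2 -1.31, edgeR adjusted p = 3.1e-05) and with no filter on low counts (log2 -0.68, edgeR adjusted p = 1.4e-05), but not with DESeq2 (adjusted p = 0.403). As a share of L1M counts, which no scaling affects, L1MA2 took 2.82%, 3.60% and 2.43% in the naive libraries and 8.24%, 2.76% and 4.83% in the primed libraries. Its neighbours by name gave 0.58 for L1MA1 and 0.44 for L1MA3. L1M3a was the other entry below 0, with 516, 513 and 378 CPM in the naive libraries and 565, 413 and 558 CPM in the primed libraries (log2 -0.15, edgeR adjusted p = 0.566), again with overlap. Without naive library 3 its change was 0.011.

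The most read entries of the lettered groups other than L1MA did not pass the test. L1ME1, the L1M entry with the most reads, had 6186, 6087 and 5777 CPM in the naive libraries, against 4684, 5388 and 5243 CPM in the primed libraries. The groups did not overlap, but the log2 change of 0.24 did not pass (edgeR adjusted p = 0.179). L1MB7 was at 4530 ± 39.6 CPM in the naive and 3907 ± 358 CPM in the primed libraries (SD, n = 3; log2 0.21, edgeR adjusted p = 0.234), and L1MD2 at 2097 ± 61.7 and 1669 ± 82.2 CPM (log2 0.33, edgeR adjusted p = 0.0737), both without overlap. L1MC4 was at 4998 ± 234 CPM in the naive and 4767 ± 136 CPM in the primed libraries (log2 0.068, edgeR adjusted p = 0.702), and L1MDa at 1140 ± 28.3 and 1129 ± 64.3 CPM (log2 0.018, edgeR adjusted p = 0.933). These last 2 overlapped.

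The composition of L1M reads does not depend on any scaling. L1ME, the group with the most reads, held 31.9% ± 0.569 of L1M counts in the naive and 31.9% ± 0.790 in the primed libraries, and L1MC 17.2% ± 0.462 and 17.1% ± 0.365 (SD, n = 3). L1MB stood at 14.8% ± 0.387 and 14.7% ± 0.334, and L1MA at 14.9% ± 1.15 and 16.0% ± 1.64, all with overlap. Of the 14 name groups, 4 took more in the naive libraries without overlap, 0 took less, and 10 overlapped. No such count was made for other repeats, so how often groups separate without overlap is not known here. The shares are also parts of a common total. The 8.24% that L1MA2 took in primed library 1 lowers the other shares there. Of the 4 groups, L1M7 and L1M8 hold 1 entry each. The 4 are small groups with a digit: L1M2 had 1.92% ± 0.0557 and 1.69% ± 0.0754, L1M6 0.513% ± 0.0161 and 0.432% ± 0.0225, L1M7 0.334% ± 0.0142 and 0.269% ± 0.00974, and L1M8 0.208% ± 0.0114 and 0.184% ± 0.0130 (SD, n = 3). The other 4 groups with a digit overlapped, with naive and primed means of 2.03% and 1.68% for L1M1, 1.85% and 1.77% for L1M3, 4.67% and 4.56% for L1M4, and 4.34% and 4.48% for L1M5. With the L1M sum of each library set as its size, so that a call is a departure from the L1M total, edgeR called 0 L1M entries higher and 0 lower, with 11 higher and 2 lower at an unadjusted p under 0.05. In that fit 2.27% of all entries were higher and 11.0% lower.

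Beside other interspersed elements from the same fit, the L1M median lay close to that of older LINEs and below that of primate L1. It was 0.23, against 0.18 for 29 ancient entries (L2, L3, L4, L5, CR1 and MIR), of which edgeR called 0. The median was 0.49 for 32 older primate L1 entries, of which 13 rose and 0 fell, and 0.36 for 7 young L1 entries (L1HS and L1PA2 to L1PA7), of which edgeR called 0. With library size alone the values were -0.46 for L1M, -0.49 for the ancient entries, -0.20 for older primate L1 and -0.38 for young L1, and without naive library 1 they were 0.24, 0.25, 0.57 and 0.46. These differences were not tested. The lists are read from the same libraries under the same scaling, and reads of related L1 families can be shared among entries.

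The direction and number of L1M calls depended on how libraries were scaled. With library size as the only scaling the L1M median was -0.46, and 0 entries rose while 3 fell: L1MA2, L1M3a and L1MDa. In that fit 0.870% of all entries were called higher and 32.4% lower, and the median of all entries moved to -0.61, so the L1M median was 0.15 above it. With upper-quartile factors 2 rose and 0 fell, where 3.23% of all entries were higher and 10.7% lower. With no filter on low counts 8 rose and L1MA2 fell, where 2.59% were higher and 5.86% lower. With simple repeats left out of the table the L1M median was 0.0026, with 45 entries above 0 and 43 below, and edgeR called 0 in either direction (10 higher and 3 lower at an unadjusted p under 0.05), where 2.45% of all entries were higher and 1.34% lower. After all libraries were thinned to the depth of primed library 2, edgeR called 0 of the 81 L1M entries tested (1 higher and 1 lower at an unadjusted p under 0.05), where 0.282% of all entries were higher and 0.00% lower.

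The calls also changed when single libraries were left out. Each such fit has fewer libraries in a group. Lower power and dependence on the library left out therefore cannot be told apart. Without primed library 1 edgeR called 0 L1M entries (17 higher and 0 lower at an unadjusted p under 0.05; median 0.16), in a fit that called 0.230% of all entries higher and 0.202% lower. Without naive library 2 it also called 0 (18 higher and 1 lower at an unadjusted p under 0.05; median 0.24), where 1.58% of all entries were higher and 3.44% lower. All 10 calls are thus lost in either fit. Without naive library 3, 6 entries rose, all among the 10, where 3.02% of all entries were higher and 5.95% lower. Without primed library 3, 5 rose, 4 of them among the 10, where 3.64% were higher and 8.89% lower. Without naive library 1, 11 rose, 8 of them among the 10, where 6.81% were higher and 11.8% lower. Without primed library 2, the shallow one, 13 rose, 8 of them among the 10, and L1MA2 fell, where 4.99% were higher and 9.59% lower. Of the 10 entries, 8 kept their call in 3 of these 6 fits, and L1M4a2 and L1M6 in 1, while the log2 changes of the 10 stayed between 0.36 and 0.90. The L1M median minus that of named repeats lay between -0.030 and 0.066 in these 6 fits.

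**Figure D5:**
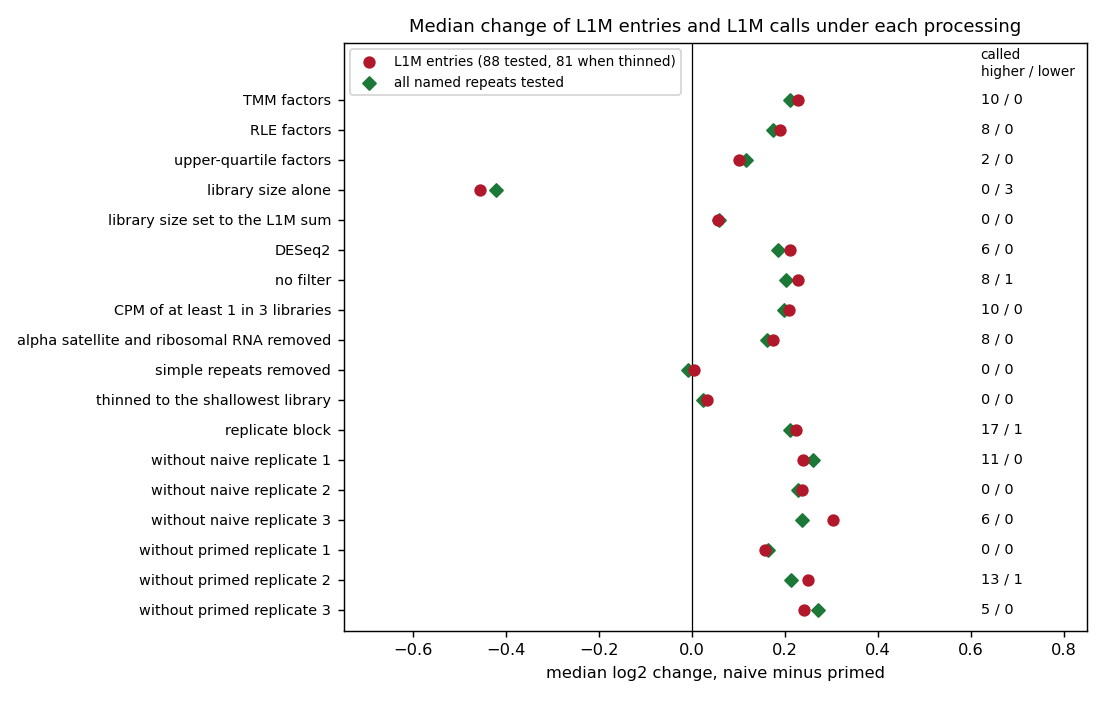
Median log2 change, naive minus primed, of L1M entries (circles) and of all named repeats tested (diamonds) under TMM scaling and each of 17 alternatives, with the numbers of L1M entries called higher and lower at the right. The L1M median runs from -0.46 with library size alone to 0.30 without naive library 3, and the median of named repeats moves with it.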

How the data were processed

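The authors deposited raw counts, 1 whole number for each repeat name in each library, with no normalisation that the values show. Per the submitters' processing notes the tools were Trimmomatic 0.39, STAR 2.7.8a, featureCounts and Subread 2.14.2. The genome build, repeat annotation, strand setting and handling of reads with several matches were not stated in these sources. Reads can therefore move between similar L1M families, and sense cannot be told from antisense.

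Counts were fitted over the whole table with edgeR 4.0.16 in R 4.3.3 (filterByExpr, TMM factors, quasi-likelihood test, naive over primed, Benjamini-Hochberg adjustment over all entries tested). The SE is the log2 change divided by the square root of F. Members and lists were chosen with earlier results of these data known. Named entries are those called, the 3 with most reads, the most read of each name group, and the 3 highest and 3 lowest log2 changes. The other numbered L1MA entries were added after their values were seen.

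On counts simulated for this comparison (3091 entries tested) the test recovered 50.5% of changes of 2-fold and 91.8% of those of 4-fold, and 3.52% of its 142 calls were wrong. The simulation took the spread of an entry from its abundance alone and kept the fitted scaling of libraries. It changed 200 entries, as many up as down. Entries with a larger spread of their own and shifts mostly in 1 direction were not simulated, so the rates hold for these settings only. These percentages were not taken for L1M entries alone, so recovery and wrong calls among L1M entries were not tested. The effect of the scaling of libraries on wrong calls was not tested either. Every L1M change is below 2-fold, and the median SE was 0.13 over L1M entries against 0.34 over all entries tested. Alternatives were RLE, upper-quartile, no or L1M-sum scaling, DESeq2 1.42.0, other filters, entries removed, binomial thinning to 118793 counts, a replicate block and each library left out. Replicate numbers were not taken as pairs. Figures were drawn with matplotlib 3.10.9.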

Additional observations from a re-analysis of the deposited data

How the results depend on the processing

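The number of L1M entries called higher, 10 with TMM, was between 0 and 17 under the 17 alternatives. It was 2 with upper-quartile factors, 6 with DESeq2, and 0 with library size alone, with the L1M sum, with simple repeats removed and after thinning; it ranged from 0 to 13 when 1 library was left out. The number lower was 3 with library size alone, 1 with no filter and from 0 to 1 without 1 library. The replicate number as a block (replicate block) gave 17 higher and 1 lower, which is L1MA2 (log2 -0.57, edgeR adjusted p = 0.00051), where 8.2% of all entries were higher and 11.6% lower; same-numbered libraries had correlations of their deviations of 0.146, 0.0867 and 0.0659, each library agreeing best with its own number, a hint from the data and not from the design. The L1M median was 0.10 with upper-quartile factors, 0.056 with the L1M sum, 0.0026 with simple repeats removed, 0.031 after thinning and -0.46 with library size alone, and ranged from 0.16 to 0.30 without 1 library. Of 14 name groups, 0 had a median above 0 with library size alone and 9 with simple repeats removed. The difference in L1M share of all counts ranged from -5.41 to -3.46 percentage points without 1 library and was 0.268 outside alpha satellite and ribosomal RNA. The cause of these shifts was not tested.

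With library size alone the name group medians were -0.48 for L1M alone, -0.27 for L1M1, -0.11 for L1M2, -0.29 for L1M3, -0.38 for L1M4, -0.55 for L1M5, -0.33 for L1M6, -0.19 for L1M7, -0.31 for L1M8, -0.42 for L1MA, -0.50 for L1MB, -0.42 for L1MC, -0.49 for L1MD and -0.50 for L1ME. Single log2 changes were then -0.14 for L1MA1, -0.11 for L1M2a, -0.10 for L1M2c, -0.23 for L1MA4A, -0.19 for L1M7, -0.19 for L1M4a2, -0.24 for L1MCa, -0.25 for L1M6, -0.46 for L1ME1, -0.55 for L1M5, -0.62 for L1MC4, -0.47 for L1MB7, -0.54 for L1M4, -0.27 for L1M1, -0.36 for L1MD2, -0.36 for L1M2, -0.44 for L1M3, -0.31 for L1M8, -0.48 for L1M and -0.67 for L1MDa. With the L1M sum, L1M5 gave -0.046, L1MC4 -0.11, L1M4 -0.036, L1M -0.022 and L1MDa -0.16, and the medians of the single-entry groups L1M and L1M5 are those values. With simple repeats removed the medians were -0.082 for L1M alone, -0.10 for L1M5, -0.048 for L1MB, -0.030 for L1MD and -0.049 for L1ME, and single changes -0.16 for L1MC4, -0.019 for L1MB7, -0.094 for L1M4 and -0.21 for L1MDa. After thinning, the medians of L1M5 and L1ME were -0.077 and -0.0052, and L1MC4 gave -0.13, L1MB7 -0.053, L1M4 -0.056, L1M3 -0.038 and L1MDa -0.038. With upper-quartile factors L1MC4 gave -0.064 and L1MDa -0.11. L1MDa also turned with RLE factors (-0.020), a CPM of at least 1 in 3 libraries (-0.0027) and alpha satellite and ribosomal RNA removed (-0.034), and without 1 library from -0.047 to 0.072. L1M3a ranged from -0.25 to 0.011 without 1 library.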
